A study of Mus musculus with 12 samples.

Results

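The ratio of H3K14ac signal at the start of a gene to that over the rest of the same gene was compared between proliferating and differentiating neural stem and progenitor cells of the mouse. For every gene longer than 3000 bases, the count in the 1000 bases that begin at the transcription start site (TSS window) was divided by the count over the remaining gene body of the same library. Both counts come from 1 library, so no scaling between libraries enters the ratio. Of 27095 genes in the count tables, 20670 were long enough, and 16286 of these had a mean TSS window count of at least 10 over the 6 wild-type libraries and were kept. A further 4384 long genes were under the count minimum and 6425 genes were too short.

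The cells were taken from the cortices and ganglionic eminences of embryos at E14.5. The proliferating group (wild type, 3 libraries) was grown as neurospheres, and the differentiating group (wild type, 3 libraries) was plated on laminin in a culture medium for cortical neurons, for a time the labels do not give. Chromatin was immunoprecipitated with an antibody against H3K14ac (Abcam ab52946). Single control libraries exist at each stage for input chromatin, for IgG, and for H3K14ac in Hbo1 null cells, in which Kat7 is deleted. The characteristics of the IgG samples list the same H3K14ac antibody, so IgG was taken from their titles. The description names 4 wild-type foetuses, and no label ties a replicate number to a foetus or culture, so p-values here reflect how far libraries of a stage lay apart, some of which may be technical. In bulk chromatin, fewer cells that carry the mark, less of the mark per cell and a less efficient pull-down at that stage cannot be told apart.

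Acetylation of histone H3 at lysine 14 is a mark of open chromatin around gene starts. It is made by HBO1, the product of Kat7, and by other acetyltransferases. HBO1 works in complexes with scaffold subunits of the BRPF and JADE families. Many gene starts in mammals lie in stretches rich in the dinucleotide CpG, which is otherwise rare in the genome. Genes of growth, RNA processing and other functions that every cell uses mostly have such starts, while many genes restricted to a tissue do not.

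Gene body counts over all genes ran from 3992697 to 7611239 in the proliferating and from 12549913 to 17074249 in the differentiating wild-type libraries, so the ratio is known better in differentiating cells. The median kept gene had a mean of 14 counts in its TSS window, and the median standard error of a log2 change was 0.39. Genes on the Y chromosome held 275 counts per 1e6 gene body counts (CPM) in differentiating replicate 3 and 62.1 in proliferating replicate 1, against 13.9 to 15.6 in the other 4 wild-type libraries. These counts did not group the libraries by stage. The effect of leaving out these 2 libraries is given with the counts of genes.

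Over the kept genes together, proliferating cells held 4.16, 4.47 and 4.38 start counts per 100 counts in the rest of the gene, and differentiating cells 3.10, 2.56 and 2.66. Every proliferating library lay above every differentiating one. The means were 4.33 ± 0.160 and 2.78 ± 0.283 (SD, n = 3 each), a difference of −1.56 per 100. The two-sided exact permutation p was 0.1, the smallest that 3 against 3 libraries can give. On the log2 scale the pooled ratio differed by −0.65 and the median ratio of single genes by −0.56 (exact permutation p = 0.1 for each).

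**Figure D1:**
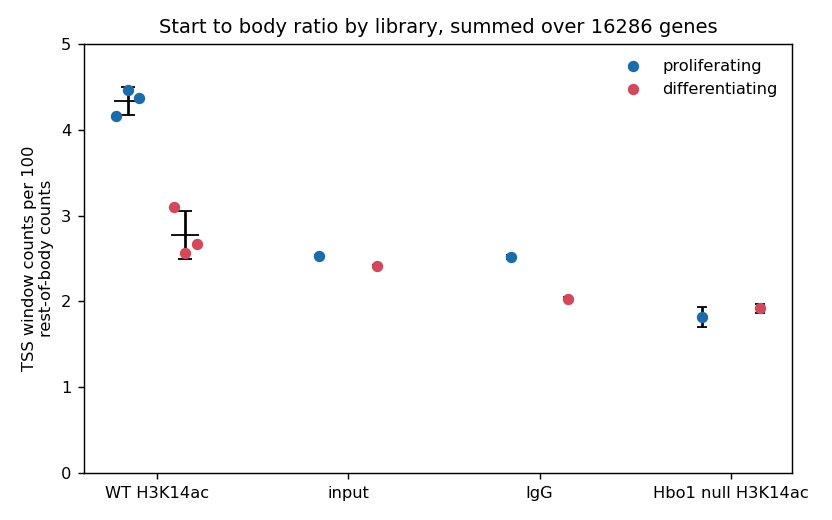
Counts in the TSS windows of the 16286 kept genes per 100 counts in the rest of their bodies, for each library. Points are libraries, bars on the wild-type groups are the mean ± SD of 3, and bars on single controls are 95% exact binomial (Clopper-Pearson) intervals for counting error. Proliferating wild-type libraries sit at 4.16 to 4.47, differentiating ones at 2.56 to 3.10, and the 6 controls at 1.82 to 2.53.

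The controls, with 1 library each, moved less between stages. Input held 2.53 start counts per 100 in proliferating and 2.41 in differentiating cells, and IgG held 2.51 and 2.03. The H3K14ac libraries of Hbo1 null cells were shallow, with 64071 and 320601 gene body counts over all genes. In them 94.4% and 74.2% of the kept genes had 0 TSS counts. They held 1.82 (95% exact Clopper-Pearson interval 1.70 to 1.94) and 1.92 (1.87 to 1.97), intervals that cover counting error only. The differentiating wild-type libraries therefore came within 0.151 to 0.683 per 100 of the differentiating input, while the proliferating ones lay 1.62 to 1.94 above theirs.

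A ratio per gene depends on gene length, so levels are given below as start enrichment: counts per kb in the TSS window over counts per kb in the rest of the gene, after adding 0.5 to each count. A value of 1 is an even spread. The median enrichment was 2.09, 2.25 and 2.21 in proliferating libraries and 1.61, 1.38 and 1.43 in differentiating ones, against 1.20 and 1.16 in input. The most enriched genes moved furthest: the 90th percentile was 4.37, 5.10 and 4.53 in proliferating and 2.52, 2.02 and 2.14 in differentiating cells.

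Gene by gene, the ratio fell in 4796 genes and rose in 25 (edgeR quasi-likelihood test on TSS and rest counts within libraries, Benjamini-Hochberg adjusted p under 0.05). These are 29.4% and 0.154% of the genes tested, or 29.6% in either direction, the background against which every list below is read. The median log2 change of all kept genes was −0.57, a ratio 1.48 times lower, with quartiles of −0.98 and −0.14, and 82.1% of genes had a negative change. The 3 differentiating libraries lay entirely below the 3 proliferating ones in 6333 genes (38.9%) and entirely above in 222 (1.36%). The number of genes that fell was 4346 without proliferating replicate 1 and 3426 without differentiating replicate 3, the libraries with more Y chromosome counts. It was lowest, at 2670 with 13 rises, without proliferating replicate 3, the deepest library of its stage. The number that rose was 15 without differentiating replicate 2 and 10 without differentiating replicate 3.

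**Figure D2:**
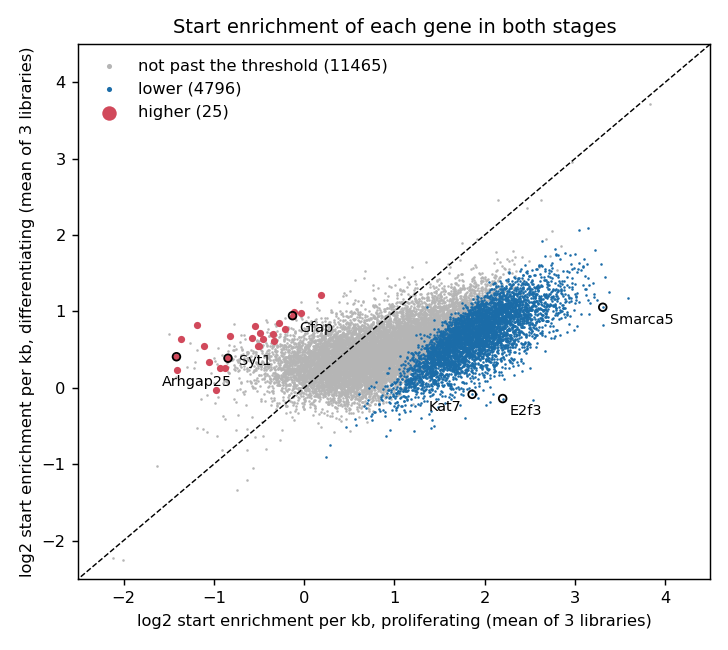
Start enrichment of each kept gene in proliferating (x axis) and differentiating cells (y axis), log2 scale, mean of 3 libraries each; the dashed line marks equal enrichment. Blue genes (4796) fell and red genes (25) rose past the threshold; 3 genes lie outside the plotted range.

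As a share of all counts over the kept genes of a library, the starts of the genes that fell held less and the rest of their bodies did not. Rest counts make up most of that total, so this scaling holds them nearly constant. It cannot show whether the signal over the rest changed. The 4796 genes were chosen by their ratio, so these values are a description. Per 1e6 counts over the kept genes of a library, their average TSS window held 3.92 ± 0.355 in proliferating and 1.80 ± 0.264 in differentiating libraries (SD, n = 3 each), a change of −54.1%. The rest of their bodies held 64.7 ± 1.71 and 67.6 ± 0.851, a change of +4.41%. In the 11465 genes not called, the start changed by −19.4% and the rest by +0.133%. The same 4796 genes held 2.16 start counts per 100 in proliferating and 2.05 in differentiating input, 2.21 and 1.68 in IgG, and 1.66 and 1.64 in the null libraries, none of which entered the choice.

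The fall was broad, so another fit asked which genes moved more or less than the typical gene. Centring the TSS counts by TMM moved the median change by 0.58 on the log2 scale, from −0.57 to 0.01. Relative to that shift, 736 genes fell (4.52%) and 242 rose (1.49%), and all 736 and all 25 of the first fit's rises were called in the same direction in both fits. Centring moves all changes upward by a similar amount, so that agreement was largely fixed in advance. Falls made up 99.5% of the calls without centring and 75.3% with it. A gene called lower below is lower in its own ratio. Whether genes were also lower relative to the typical gene is given for the 12 largest falls and as counts for some lists. For other single genes it is not said, and some of them were.

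How far the ratio fell went with how enriched the start was. Genes were placed in 10 equal groups by their enrichment in proliferating replicate 1, and the change was taken from a fit without that library. In the lowest group the median change was −0.12 and 3.01% of genes fell, and in the highest it was −1.20 and 69.4% fell. The groups between followed in order, at medians of −0.22, −0.28, −0.36, −0.48, −0.62, −0.77, −0.93 and −1.03. The enrichment in proliferating replicates 2 and 3 ran from 1.36 to 4.32 over these groups and in differentiating cells only from 1.25 to 1.89. The input change stayed between −0.08 and 0.00 in all 10. The IgG change was −0.04 in the lowest group and −0.30 in the highest, with 1 library per stage, and its part was not tested.

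Genes with more counts at the start were called more often and had larger changes. Of the 228 genes with a mean TSS count of 30 or more, 181 fell (79.4%) and 0 rose, with a median change of −1.24, and only 9 had a positive change. At the other end, the 1941 genes just inside the count minimum (mean 10 to under 11) had a median change of −0.16, and the 1632 just outside (9 to under 10) had −0.16 as well. The minimum is on raw counts, to which the deeper differentiating libraries add most. With a minimum that weights the 6 libraries equally, 4906 genes fell and 16 rose.

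The sequence around the start separated the genes by the size of the fall. RefSeq promoters (GRCm38.p6, 250 bases before to 50 after the start) could be matched to 11319 of 13755 kept protein-coding genes (82.3%). In 6019 of these the promoter's start lay at the annotated 5′ end of the gene. In the others the nearest promoter was taken at any distance, and it may not be the start whose TSS window was counted. CpG dinucleotides were counted in the 300 bases. The sequences of 4 genes show the range, each being the 150 bases before the start, 5′ to 3′ on the strand of the gene, with CpG in capitals. Smarca5 had the largest fall of the well-counted genes, Kat7 encodes HBO1, and Gfap and Syt1 are genes of astrocytes and neurons among the 25 that rose. They were chosen after their values were seen. They lie at chr8:80739460-80739609 (Smarca5), chr11:95310247-95310396 (Kat7), chr11:102897201-102897350 (Gfap), chr10:109010976-109011125 (Syt1), all on the minus strand.
Smarca5: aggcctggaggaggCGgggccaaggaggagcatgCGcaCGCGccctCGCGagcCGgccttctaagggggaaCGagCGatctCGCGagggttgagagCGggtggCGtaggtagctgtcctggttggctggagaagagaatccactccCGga
Kat7: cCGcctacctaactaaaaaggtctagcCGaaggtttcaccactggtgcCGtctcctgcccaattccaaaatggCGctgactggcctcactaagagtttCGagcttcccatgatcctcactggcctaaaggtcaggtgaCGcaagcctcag
Gfap: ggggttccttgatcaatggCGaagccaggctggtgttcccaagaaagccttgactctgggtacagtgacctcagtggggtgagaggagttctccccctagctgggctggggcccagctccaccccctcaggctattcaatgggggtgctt
Syt1: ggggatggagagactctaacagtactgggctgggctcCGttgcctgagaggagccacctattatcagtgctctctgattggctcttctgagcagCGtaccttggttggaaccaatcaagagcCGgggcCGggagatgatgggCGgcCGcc
The 4 stretches hold 14, 6, 1 and 6 CpG, and the 300 bases around each start hold 32, 14, 3 and 8.

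Genes with 30 or more CpG around the start had a median change of −0.93, and 54.4% of them fell. Their median enrichment was 3.07 in proliferating and 1.58 in differentiating cells. Genes with 0 to 4 CpG had a median change of −0.11, 4.91% fell, and enrichment was 1.37 and 1.29. The groups with 5 to 9, 10 to 19 and 20 to 29 CpG lay between, at −0.31, −0.70 and −0.83, with 14.2%, 32.5% and 43.4% lower. In proliferating cells the enrichment thus climbed with CpG content in every library, from 1.47, 1.43 and 1.41 to 2.80, 3.36 and 3.10. In differentiating cells it climbed little, from 1.34, 1.29 and 1.28 to 1.86, 1.43 and 1.57. Input declined slightly over the same groups, from 1.27 to 1.14 and from 1.23 to 1.08. IgG went from 1.34 to 1.31 in proliferating and from 1.24 to 1.07 in differentiating cells, with 1 library each. Counts at the start were also higher with CpG content, from a median of 12.3 to 17.0, and their part in the share of genes that fell was not tested.

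**Figure D3:**
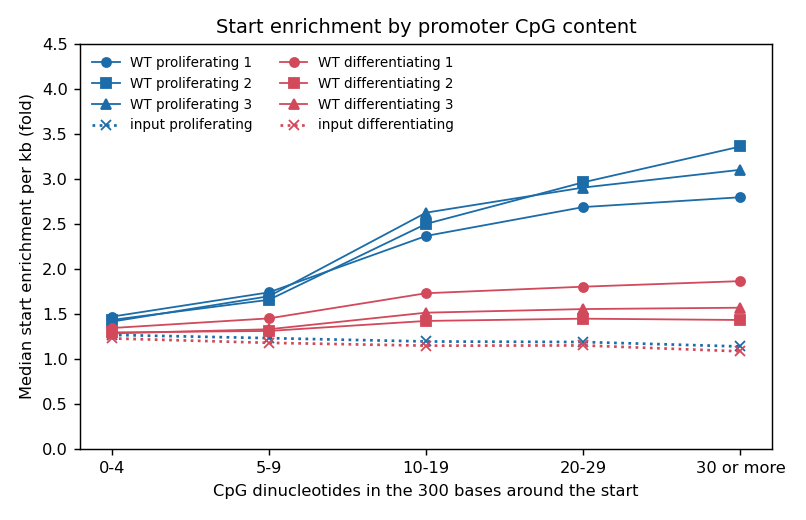
Median start enrichment per kb of protein-coding genes, grouped by the CpG dinucleotides in the 300 bases around the start (1957, 1306, 2692, 3059 and 2305 genes from left to right). Each solid line is a wild-type library and each dotted line an input. The proliferating lines climb to 2.80, 3.36 and 3.10, the differentiating lines end at 1.86, 1.43 and 1.57, and the inputs stay near 1.1 to 1.3.

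Short motifs were searched in the same 300 bases on both strands, and a match is only a match of letters. The GC box GGGCGG, which itself holds a CpG, was found in 72.3% of the 3738 promoters of genes that fell and in 48.7% of the 7565 not called, against 35.7% of all RefSeq promoters of this length. The ETS motif CCGGAAG followed with 20.3% and 13.0% (8.86% of all promoters), the NRF1 core GCATGCG with 8.24% and 4.57% (3.58%) and the E-box CACGTG with 10.9% and 8.35% (7.15%), each also with a CpG. Motifs with no CpG went the other way or nowhere. The TATA box TATAAA was in 5.24% and 10.9% (13.6%), the AP-1 motif TGANTCA in 3.34% and 7.32% (7.81%), and CCAAT in 37.7% and 38.5% (37.4%).

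Gene length went with smaller differences than CpG content. The median change was −0.38 in genes of over 3 to 5 kb, of which 13.1% fell, and −0.71 in genes of over 50 to 100 kb, of which 40.6% fell. It was −0.60 in the genes over 200 kb. The median enrichment in proliferating cells was 1.76, 2.31 and 1.95 in these groups. Among the 8450 genes that overlap no other annotated gene the median was −0.56 and 28.5% fell, close to the whole set.

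The 12 largest falls were taken from genes with a mean TSS count of at least 30 and no overlap between stages. They were Smarca5, Hnrnpa2b1, Pnisr, Rab6a, Ecpas, Wtap, Anp32e, Gab2, Zfp644, Ythdc1, Myl12a and Setd7. Their log2 changes ran from −2.27 to −1.84, all at an edgeR adjusted p of 9.2e-08 or less, and all 12 were also lower relative to the typical gene. Several act on chromatin or RNA. SMARCA5 is the motor ATPase of ISWI chromatin remodelers, ANP32E is a chaperone that removes the histone variant H2A.Z, and SETD7 is a lysine methyltransferase. WTAP belongs to the complex that methylates adenosine in RNA and YTHDC1 is a nuclear reader of that mark, while HNRNPA2B1 binds RNA during splicing.

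Smarca5 lies on chromosome 8 (80699943 to 80739459, GRCm38). Its TSS window held 22, 28 and 58 counts in the proliferating libraries and 27, 21 and 30 in the differentiating ones, although the latter were deeper. Its enrichment was 10.6, 8.89 and 10.3 against 2.78, 1.80 and 1.79, with 1.97 and 1.40 in input. All proliferating libraries stood far above all differentiating ones (log2 change −2.27, SE 0.28, edgeR adjusted p = 3.12e-11). Myl12a, a regulatory light chain of non-muscle myosin, held 9.26, 12.2 and 8.97 against 4.56, 1.85 and 2.43, and differentiating replicate 1 stood above its 2 partners. Hnrnpa2b1 held 9.18, 8.95 and 6.58 against 2.14, 1.63 and 1.53, but its input was uneven too, at 3.71 in proliferating and 1.75 in differentiating cells. With the input ratio as an offset its change was −1.12 (edgeR adjusted p = 0.00106) instead of −2.20. Rab6a, a small GTPase of Golgi traffic, went from 9.47 to 2.22, and Gab2, an adaptor of receptor tyrosine kinases, from 8.24 to 2.17 (means over 3 libraries).

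**Figure D4:**
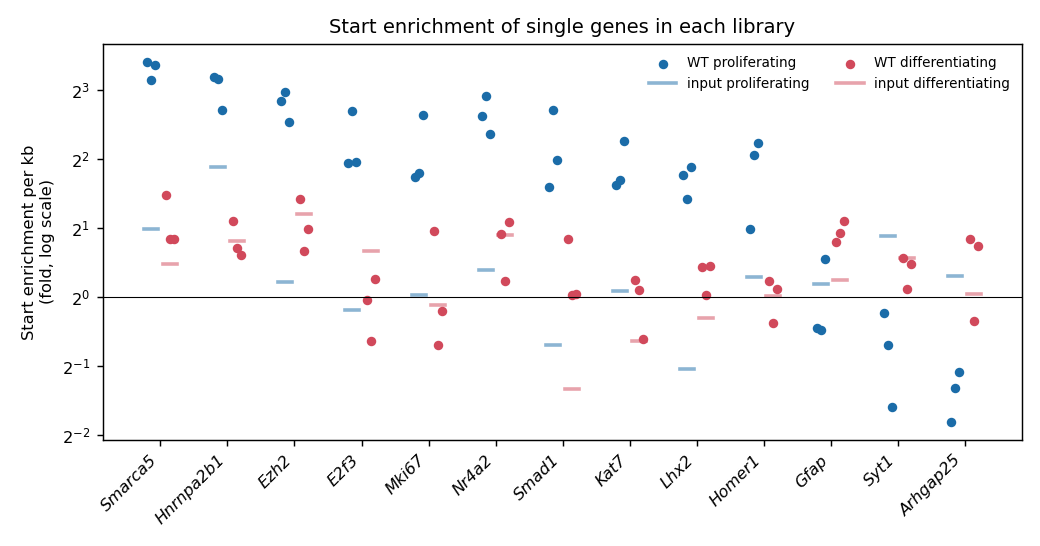
Start enrichment per kb of 13 genes in each wild-type library (points) and input (bars), on a log scale; 1 is an even spread. In the first 10 genes every proliferating library lies above every differentiating one, and in Gfap, Syt1 and Arhgap25 every one lies below.

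The list of HBO1 complex genes was among those with the lowest medians. Of the 10 genes of the HBO1 complexes 8 were kept, and 7 of these fell, with a median change of −1.22 against −0.57 for all genes. The list's median change was −0.14 in input and −1.11 in IgG, with 1 library per stage, against −0.05 and −0.19 over all genes, and the part of these controls in the result was not tested. Kat7 itself (chromosome 11, 95271853 to 95310246, GRCm38) held 10, 10 and 23 TSS counts in proliferating and 12, 13 and 10 in differentiating libraries. The rest of the gene held 127, 121 and 182 against 392, 471 and 598. The enrichment was 3.08, 3.23 and 4.82 against 1.19, 1.07 and 0.656, so the differentiating start was no denser than the rest of the gene (log2 change −2.04, SE 0.38, edgeR adjusted p = 5.85e-06). Its input also differed, at 15 and 9 TSS counts, an enrichment of 1.06 and 0.638, and with the input ratio as an offset the change was −1.30 (edgeR adjusted p = 0.00306). The IgG libraries held 3 TSS counts each. The null libraries held 0 TSS counts with 4 and 11 in the rest of the gene, too few for a ratio. These counts are DNA over the whole gene and do not show which part was deleted.

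The scaffold genes Brpf1 and Brpf3 fell by 1.37 and 1.46 on the log2 scale, from enrichments of 6.50 and 3.83 to 2.55 and 1.30. Ing4, which encodes a subunit that reads methylated H3, was the member not called, at −0.64 (chosen after its value was seen). Without proliferating replicate 2 only 3 of the 8 passed. Of 15 other histone acetyltransferase genes 9 fell (median −1.15), Ncoa1 by 1.57, Kat5 by 1.74 and Kat6a by 1.49. Kat5, the acetyltransferase of the NuA4 complex, held 3.82, 6.92 and 10.3 in proliferating and 1.61, 2.30 and 2.22 in differentiating cells. The spread among the proliferating libraries was wide, but none reached down to the differentiating values. Of 12 histone deacetylase genes 5 fell (median −0.81), among them Hdac5, Sirt1 and Sirt3. This count was 3 without proliferating replicate 1 or 3 or differentiating replicate 2 or 3, and the median IgG change of the list was −0.75.

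Genes of chromatin remodelers and histone methylation fell in larger shares than all genes. Of 26 remodeler genes 20 fell (median −1.17), and 8 fell relative to the typical gene. The median change of this list was −0.09 in input and −0.48 in IgG, and that of the histone methylation list −0.10 and −0.03. Over all genes these were −0.05 and −0.19, and the part of the controls was not tested. Ino80, the ATPase of the complex named for it, fell by 1.78, from an enrichment of 6.18 to 1.65. Arid1a, a subunit of BAF complexes, held 5.68, 12.9 and 8.68 in proliferating and 3.00, 3.54 and 3.14 in differentiating libraries. Its start thus stayed denser than its body in differentiating cells, at a mean of 3.22, while it fell (log2 change −1.46, SE 0.25, edgeR adjusted p = 1.01e-06). Of 28 genes for enzymes that add or remove histone methylation and their partners 23 fell (median −1.20), and 5 fell relative to the typical gene. Without proliferating replicate 3 the count was 15. Ezh2, the methyltransferase of Polycomb complex PRC2, held 7.17, 7.85 and 5.83 against 2.67, 1.58 and 1.98. Its input was 1.16 and 2.29, higher in differentiating cells, so the direction in input was opposite. The lysine demethylase genes Kdm1a and Kdm2a fell by 1.64 and 1.61.

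RNA processing genes fell in a share like that of histone methylation genes. Of 29 splicing factor genes 24 fell (median −1.23), none rose, and 9 fell relative to the typical gene. The controls of this list moved the same way, with median changes of −0.36 in input and −0.66 in IgG, and their part in the result was not tested. Rbm39 fell by 1.64 and Hnrnpk by 1.75, from enrichments of 9.79 and 6.43 to 3.06 and 1.97. Their inputs differed in the same direction, from 4.29 to 1.55 in Rbm39 and from 2.16 to 0.913 in Hnrnpk, and with the input ratio as an offset neither passed (edgeR adjusted p = 0.65 and 0.16). Hnrnpa1 stood out as the member nearest 0, at −0.16 (not called, chosen after its value was seen).

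Among other genes that every cell uses, those of the respiratory chain fell in the largest share. Of 27 respiratory chain genes 20 fell (median −1.09), and 0 fell relative to the typical gene. Uqcrfs1, Atp5b and Ndufa10 fell by 1.58, 1.39 and 1.27. With the input ratio as an offset Uqcrfs1 did not pass (edgeR adjusted p = 0.153), and Ndufa10 had an input of 1.54 and 0.569 and a change of 0.16 with the input ratio as an offset. Of 26 ribosomal protein genes 14 fell (median −1.02). Rps14 went from 7.12, 9.93 and 9.89 to 2.33, 2.95 and 2.37. Of 24 housekeeping genes 8 fell (median −0.63), near the share of all genes, with Vcp, an ATPase that extracts proteins for degradation, at −1.56. Actb, at −0.40, and Gapdh, at −0.55, were not called (chosen after their values were seen). Without proliferating replicate 3 these counts were 9, 5 and 3. The median IgG changes of the 3 lists were −0.42, −0.34 and −0.25, against −0.19 over all genes, and their part was not tested. The respiratory chain count was 12, 11 and 10 without proliferating replicate 1, differentiating replicate 2 and differentiating replicate 3, and the ribosomal count was 9 without differentiating replicate 3.

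Of 28 cell cycle genes 17 fell (median −1.13), all 28 changes were negative, and 4 fell relative to the typical gene. Without proliferating replicate 3 the count was 11. E2f3, a transcription factor of S phase entry, held 16, 21 and 25 TSS counts in proliferating and 11, 7 and 18 in differentiating libraries. Its enrichment was 3.85, 6.50 and 3.87 against 0.973, 0.642 and 1.19 (log2 change −2.26, SE 0.34, edgeR adjusted p = 5.36e-08), the largest fall of any list but that of Smarca5. Mki67, which encodes the proliferation antigen Ki-67, held 3.34, 3.47 and 6.23 against 1.94, 0.614 and 0.869 (−2.05). Ccnb1, the mitotic cyclin B1, fell by 1.98 from 3.73 to 0.949. In these 3 genes the mean differentiating start was about as dense as the rest of the gene. The CDK inhibitor genes Cdkn1a, Cdkn1b and Cdkn2c, at −0.54, −0.75 and −0.50, were not called (chosen after their values were seen).

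Of 31 genes of DNA replication and origin licensing 13 fell (median −0.87). Gins1, a subunit of the replicative helicase, Mcm10 and Mcm7 fell by 1.78, 1.55 and 1.65, to enrichments of 0.810, 1.28 and 1.19. Pcna, the polymerase clamp, at −0.53, was not called (chosen after its value was seen). The count was 7 without proliferating replicate 3 and 7 without differentiating replicate 3.

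Genes that answer growth factors and other acute signals had negative changes throughout. Of 31 kept members 19 fell (median −1.04), all 31 changes were negative, and 7 fell relative to the typical gene. The median change of the list was −0.06 in input and −0.30 in IgG, and the part of these controls was not tested. Nr4a2, a nuclear receptor of the immediate early class, held 6.19, 7.58 and 5.15 against 1.89, 1.17 and 2.13 (log2 change −1.80, SE 0.30, edgeR adjusted p = 3.84e-07). Fosb, an AP-1 subunit, held 4.09, 7.39 and 5.99 against 1.80, 1.84 and 1.50 (−1.78). In Fosb the 3 differentiating libraries were close together, and in both genes every differentiating library lay far below the proliferating ones. Spred2, an inhibitor of signalling from growth factor receptors to MAP kinase, fell by 1.56. Myc and Mycn, at −0.41 and −0.35, were not called (chosen after their values were seen).

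**Figure D5:**
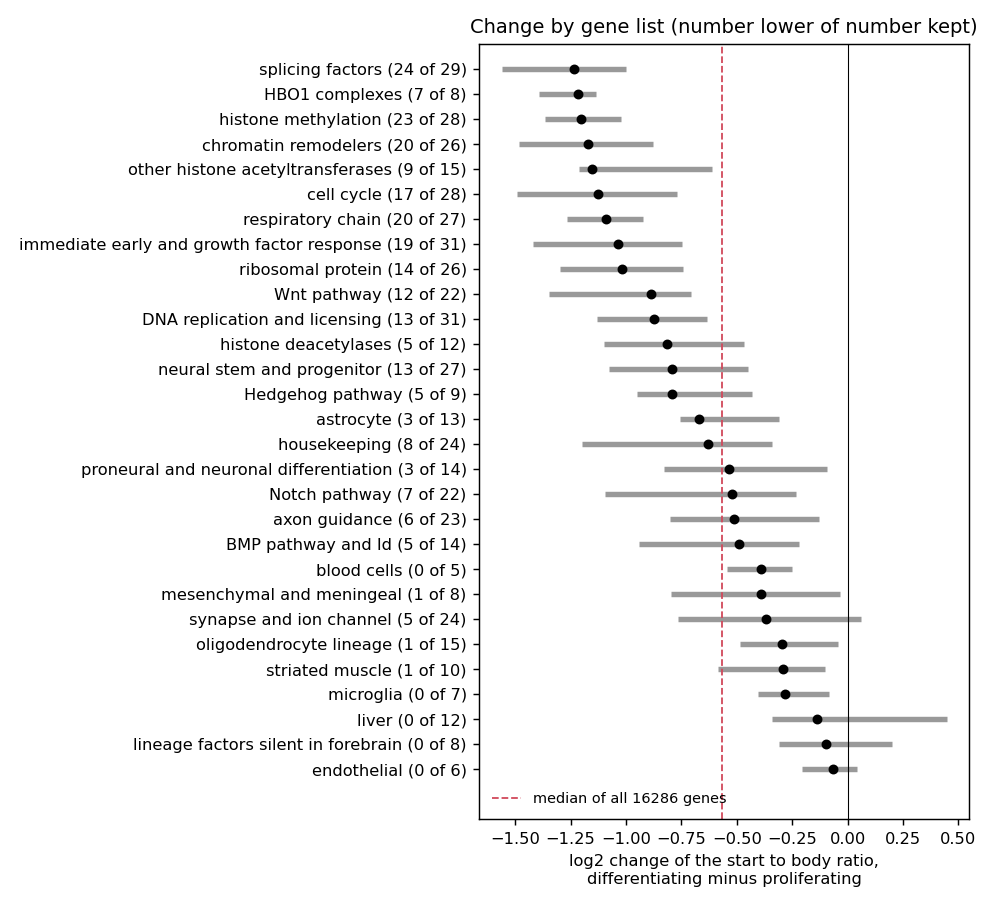
Median (points) and quartiles (grey bars) of the log2 change of the start to body ratio in 29 gene lists, differentiating minus proliferating; the dashed line marks the median of all genes, −0.57. Splicing, HBO1 complex and histone methylation genes lie lowest, at −1.23 to −1.20, and endothelial, lineage factor and liver genes lie nearest 0, at −0.07 to −0.14.

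Developmental signalling pathways differed in how many members fell. In the Wnt pathway, where a secreted ligand keeps β-catenin from being destroyed, 12 of 22 fell (median −0.89). Wnt7b, a ligand of the developing forebrain, held 3.32, 5.20 and 3.93 against 1.55, 1.36 and 1.63. The receptor gene Fzd3 went from 5.53, 5.04 and 4.93 to 2.42, 1.52 and 2.06. Apc, part of the complex that destroys β-catenin, fell by 1.38, but its input was 1.21 and 0.638 and it did not pass with the input ratio as an offset (edgeR adjusted p = 0.19). Without proliferating replicate 3 the count for the pathway was 6.

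In the Hedgehog pathway 5 of 9 fell (median −0.79). Smo, the membrane protein that passes the signal on, held 3.78, 7.69 and 3.66 against 1.74, 0.962 and 2.07. The effector gene Gli3 and the co-receptor gene Boc fell by 1.08 and 0.79. Without proliferating replicate 3 only 1 of the 9 passed, and 2, 3 and 2 passed without proliferating replicate 2, differentiating replicate 2 and differentiating replicate 3. In the BMP pathway 5 of 14 fell (median −0.49), among them the genes of the transducers: Smad1, Smad4 and Smad5 fell by 1.77, 1.66 and 1.31. The count was 3 without proliferating replicate 3 or differentiating replicate 2, and the median change of the list was −0.26 in input and −1.19 in IgG. The ligand genes Bmp4 and Bmp7 were at −0.06 and −0.20 and not called (chosen after their values were seen). Smad1 held 3.01, 6.56 and 3.95 in proliferating and 1.79, 1.02 and 1.03 in differentiating libraries.

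In the Notch pathway 7 of 22 fell (median −0.52), a share near that of all genes. Notch1, the receptor, held 5.24, 4.46 and 4.29 against 2.53, 1.82 and 1.86 (log2 change −1.15, SE 0.27, edgeR adjusted p = 0.000388). Rbpj, the DNA-binding partner of the activated receptor, and its coactivator gene Maml1 fell by 1.36 and 1.28. With the input ratio as an offset Rbpj still passed (edgeR adjusted p = 6.94e-06), and Notch1 and Maml1 did not (0.177 and 0.672).

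Neural lists differed in the share of members that fell. Of 27 genes of neural stem and progenitor cells 13 fell (median −0.79), and 6 did without proliferating replicate 3. Among the 27 changes 25 were negative. The median change of the list was −0.07 in input and −0.37 in IgG, and the part of these controls was not tested. Nfib, a transcription factor of glial and stem cell development, held 6.97, 6.12 and 5.51 against 2.83, 1.66 and 2.58 (log2 change −1.37, SE 0.26, edgeR adjusted p = 7.08e-06). Lhx2, a homeobox factor of the cortical progenitor, held 3.40, 2.69 and 3.70 against 1.35, 1.01 and 1.37. In both, the stages were well apart. The forebrain patterning gene Pax6 had a positive change of 0.58 that did not pass (chosen after its value was seen).

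In genes of neurons the medians lay nearer that of all genes. Of 14 kept genes of neuronal differentiation 3 fell (median −0.54): Map2, of the dendritic cytoskeleton, Elavl4, an RNA-binding protein of neurons, and Ebf1, by 1.07, 1.10 and 0.95. Without proliferating replicate 2 only 1 passed. A further 14 members of this list were under the count minimum. Of 24 synapse and ion channel genes 5 fell and 1 rose (median −0.37). Homer1, a scaffold of the postsynaptic density, held 1.98, 4.15 and 4.70 against 1.17, 0.767 and 1.08 (−1.91), and Syn2, a protein of synaptic vesicles, fell by 1.46. Of 23 axon guidance genes 6 fell (median −0.51), Epha5, Ntn1 and Nrp1 by 1.39, 1.36 and 1.30. With the input ratio as an offset Epha5 and Nrp1 did not pass (edgeR adjusted p = 0.0752 and 0.577). The count for synapse genes was 2 without proliferating replicate 3 or differentiating replicate 3. That for axon guidance genes was 2 without proliferating replicate 3 and 3 without differentiating replicate 2.

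Glial genes were mixed. Of 13 astrocyte genes 3 fell and 1 rose (median −0.67). Slc1a2, the main glutamate transporter of astrocytes, held 3.25, 2.52 and 2.99 against 1.86, 0.757 and 1.26, and Gja1 and Fgfr3 fell by 0.98 and 0.84. Fgfr3 did not pass with the input ratio as an offset (edgeR adjusted p = 0.186). Of 15 genes of the oligodendrocyte lineage 1 fell (median −0.30). That gene was Ptprz1, a receptor phosphatase also made by neural progenitors, at −1.26.

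Lists of genes of other tissues lay nearer 0 than all genes together. None of the kept genes of liver (12), of lineage factors silent in the forebrain (8), of microglia (7), of endothelium (6) or of blood (5) passed in either direction, with medians of −0.14, −0.10, −0.28, −0.07 and −0.39. In striated muscle 1 of 10 fell, Myh4 by 1.11, and in mesenchymal and meningeal cells 1 of 8, Prrx1 by 0.94. Each of these calls was lost without proliferating replicate 1 or 3 or differentiating replicate 2 or 3, and that of Myh4 also without proliferating replicate 2. Most members of some of these lists were under the count minimum: 22 of 30 long enough lineage factors and 11 of 16 blood genes. The kept members also had few counts, with a median mean TSS count from 11.5 (liver) to 12.6 (endothelium), against 14 over all kept genes. Genes with a mean of 10 to under 11 had a median change of −0.16. The part of the count level in the medians of these lists was not tested. Summed over the liver list, the start held 12.1 ± 0.383 counts per 100 of the rest in proliferating and 11.4 ± 1.11 in differentiating libraries (SD, n = 3 each), so the groups overlapped. The same sums for the splicing list were 28.7 ± 0.819 and 11.6 ± 2.26, and for the HBO1 complexes 13.3 ± 3.74 and 5.42 ± 0.820.

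The 25 genes that rose were of another kind. They had 0 to 11 TSS counts in any proliferating and 7 to 41 in any differentiating library, and a mean of at most 17.8, so each passed the count minimum through the differentiating libraries, where it was high. Their mean enrichment ran from 0.375 to 1.14 in proliferating and from 0.983 to 2.31 in differentiating cells. A rise here thus meant a start that was thinner than the body in most cases and became even or modestly dense. Summed over the 25 genes, input held 2.26 and 2.35 start counts per 100, between the 1.33, 1.24 and 1.35 of the proliferating and the 3.11, 2.85 and 3.15 of the differentiating libraries. Stages did not overlap in 20 of the 25, a description from the same values that made the calls. All 25 were also called higher relative to the typical gene, which the upward shift of centring largely fixed in advance. When each library was left out in turn, only Arhgap25 and 1700001L05Rik passed every time.

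Gfap, which encodes the intermediate filament protein of astrocytes, held 4, 3 and 11 TSS counts in proliferating and 27, 25 and 37 in differentiating libraries. Its enrichment was 0.728, 0.711 and 1.47 against 1.74, 1.91 and 2.15, with input at 1.14 and 1.18 (log2 change 0.98, SE 0.40, edgeR adjusted p = 0.0474). Proliferating replicate 3 stood above its 2 partners and still below the differentiating group. The call rests on several libraries: the edgeR adjusted p was 0.187, 0.168, 0.0752 and 0.137 without proliferating replicate 1, proliferating replicate 2, differentiating replicate 2 and differentiating replicate 3. Gfap also did not pass with DESeq2 (DESeq2 adjusted p = 0.131) or the input ratio as an offset (edgeR adjusted p = 0.0549). The whole gene body as denominator and a minimum mean TSS count of 1 gave edgeR adjusted p of 0.0734 and 0.0568. It passed with limma (limma adjusted p = 0.0302) and the other alternatives that kept the gene.

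Syt1, the calcium sensor of synaptic vesicle release, held 3, 2 and 2 TSS counts against 18, 14 and 25. Its enrichment was 0.848, 0.617 and 0.333 against 1.48, 1.08 and 1.40 (log2 change 1.46, SE 0.51, edgeR adjusted p = 0.0193). Its input was 1.85 and 1.48, above its proliferating libraries and level with the highest differentiating one. The edgeR adjusted p was 0.267 without proliferating replicate 3 and 0.0582 without differentiating replicate 3. Syt1 also did not pass with DESeq2 (DESeq2 adjusted p = 0.112) or limma (limma adjusted p = 0.154), and did with the other alternatives that kept the gene. Arhgap25, a GTPase activator of leukocytes, had the largest rise, with 1, 1 and 3 against 22, 9 and 27 TSS counts (log2 change 2.11, SE 0.56, edgeR adjusted p = 0.00171). Its 6 enrichments were 0.285, 0.404 and 0.472 against 1.79, 0.784 and 1.66, with input at 1.24 and 1.02.

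The other 20 genes with a symbol included Mcf2l, a guanine nucleotide exchange factor, Igsf9b, an adhesion molecule of inhibitory synapses, Rlf, a zinc finger protein, and Mmp12, a metalloproteinase of macrophages, at 1.03, 1.19, 1.38 and 1.38. Of all 25, 19 were protein-coding and 3 were long non-coding RNA genes, and 5 lay on chromosome 8. Among the genes matched to promoters, the 16 that rose had a median of 4 CpG around the start, the 3738 that fell 25, and the 7565 not called 14.

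No gene with a mean TSS count of at least 30 rose. The 5 with a positive change and the smallest p were Zfp981, Speer4cos, Sp140, Erdr1 and Malat1, at 0.27, 0.17, 0.12, 0.12 and 0.07, and did not pass (edgeR adjusted p from 0.555 to 0.882). Erdr1 held 4, 0 and 5 TSS counts in proliferating and 78, 75 and 85 in differentiating libraries, with 6 and 90 in input, and its rest-of-body counts moved along with them, as its change of 0.12 shows. Speer4cos belongs to a multigene family, in which the counting of reads that align to several places is not stated.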

How the data were processed

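Per the labels' protocols, H3K14ac ChIP DNA was made into TruSeq DNA libraries and read on an Illumina NextSeq. Per the submitters' processing notes, reads were converted with bcl2fastq and counted with featureCounts on mm10. The aligner, the versions and the treatment of reads that align to several places or genes are not given in the sources used here. The authors deposited raw counts per Entrez gene ID, in TSS windows and over gene bodies, for 12 libraries. Genes on overlapping spans may share reads.

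The body count minus the TSS count gave the rest of each gene. TSS and rest counts of the 6 wild-type libraries were fitted in R 4.3.3 by the two-sided quasi-likelihood test of edgeR 4.0.16, with a term per library, a TSS term and a TSS by stage term, and equal library sizes. P-values were adjusted by Benjamini-Hochberg over 16286 genes, with a threshold of 0.05. DESeq2 1.42.0 and limma 3.58.1 served as alternatives. Pooled and median ratios were compared by exact permutation in Python 3.11.15. No 2 libraries of a stage agreed within sampling noise (chi-square per degree of freedom of 1.47 to 5.16).

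Symbols and coordinates came from RefSeq (GRCm38.p6, the assembly of mm10) for 15665 of the 16286 genes, and 621 had none. Promoters were matched only for protein-coding genes outside chromosome 18, which was not used, since 75.7% of all kept genes had one.

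The members and the 29 gene lists were chosen with earlier results of these data known, and no set test was run. Changes in input and IgG are given above for some of the lists only. Named genes were the 12 largest falls with an adjusted p under 0.05, a mean TSS count of at least 30, no overlap between stages and no predicted or clone name, up to 3 called members per list by adjusted p, Kat7, and, where no rise passed, the 5 smallest p. All genes called higher were added after their values were seen. Not every gene the rule names is reported here.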

Additional observations from a re-analysis of the deposited data

How the results depend on the processing

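The median and pooled ratio differences kept their direction under every alternative that recomputes them, which DESeq2, limma and centring by TMM do not. Centring sets the typical gene near 0 by construction, with a median change of 0.01. The median ran from −1.26 (mean TSS count of 30 or more) to −0.46 (of 1 or more) and the pooled difference from −1.12 to −0.58 over the same alternatives and the input offset. The numbers of genes that fell and rose were 4796 and 25 and moved more. DESeq2 gave 2646 and 2, and limma on log2 ratios gave 4575 and 4. Centring by TMM gave 736 and 242. The input ratio as an offset gave 5162 and 544, with 3436 of the 4796 and 10 of the 25 shared, and treats the input's own counting error as absent. A mean TSS count of 1 or more gave 4614 and 41, one of 30 or more gave 185 and 0 of 228 genes tested, and equally weighted CPM gave 4906 and 16. Leaving out overlapping genes gave 2396 and 13 of 8450 genes tested; fewer genes were tested there. Elsewhere the cause was not tested. Leaving out 1 library at a time gave 2670 to 5102 lower and 10 to 31 higher genes, median differences of −0.63 to −0.51 and pooled differences of −0.73 to −0.59. A replicate block gave 4396 lower and 21 higher genes. Deviations of same-numbered libraries from their stage means correlated at 0.01, −0.03 and 0.01 over genes. Counting error is large in single genes, so these values cannot show whether such libraries share a foetus or culture. With a replicate block the median difference of −0.56 had a sign-flip permutation p of 0.25, the smallest that 3 pairs can give.

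Of the named genes 75 fell, and 59 of these passed without each library in turn. The other 16 included B2m, Boc, Ebf1, Elavl4, Epha5, Fgfr3, Gja1, Gli3, Myh4, Ndufa10, Nrp1, Prrx1, Rps18, Sirt3 and Uqcrfs1. Over all alternatives, named genes kept direction and side of the threshold in 1446 results, lost the call in 266, gained it in 2 and changed direction in 6. Those 6 were Ndufa10 (0.16) and Iqcg (−0.038) with the input ratio as an offset, and 3 genes that had not passed when 1 library was left out: Sp140 (−0.061 to 0.23, negative without differentiating replicate 1), Erdr1 (−0.35 to 0.49, negative without proliferating replicate 2) and Malat1 (−0.15 to 0.31, negative without replicate 1 of either stage). The cause was not tested. TSS windows of about 14 counts limit single genes, and no control was replicated within its stage.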

Other observations

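Protein-coding genes and other classes differed in the share that fell. Of 14167 protein-coding genes 32.7% fell, with a median log2 change of −0.64 and a median enrichment of 2.27 in proliferating and 1.47 in differentiating cells. Of 1252 genes for long non-coding RNA 9.98% fell (median −0.20, enrichment 1.47 and 1.30), and 3 rose. Of 71 pseudogenes 1 fell (median 0.10, enrichment 1.31 and 1.33). Olfactory and vomeronasal receptor genes, expressed in sensory neurons, had 1 fall and 1 rise among 159 kept genes, with a median of −0.03. Reads of these families may be shared between near-identical copies.

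Genes on the X chromosome had a median change of −0.62, close to that of all genes, and 58 of 264 fell (22.0%). Their IgG change was −0.51 against −0.19 over all genes, and their input change −0.06 against −0.05.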
